A study of Mus musculus with 28 samples.

Results

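The genes described here encode the protein subunits of the mitochondrial ribosome. They were taken from a table of RNA-seq read counts as every gene whose symbol is Mrpl or Mrps followed by a number and at most 1 letter, which gave 78 of the 49492 symbols in the table. Of these, 51 encode proteins of the large subunit and 26 encode proteins of the small subunit. The remaining gene, Mrps36, has a ribosomal name, but its product is now regarded as a subunit of the oxoglutarate dehydrogenase complex of the citric acid cycle. By an assigned list of roles, 46 of the ribosomal members have a counterpart in the bacterial ribosome (30 large, 16 small), and 31 are specific to mitochondria (21 large, 10 small). All 78 could be placed on the GENCODE M21 annotation of GRCm38 (mm10), where they lie on 17 chromosomes. The rule left out 5 symbols that begin in the same way, all pseudogenes by name, of which Mrpl48-ps had a mean of 26.5 counts per library, Mrpl23-ps1 had 9.86, and 3 pseudogenes of Mrps36 had 0.

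Mitochondria carry their own ribosome, which translates only the few messages encoded by mitochondrial DNA, all of them for core subunits of the respiratory chain and ATP synthase. Its RNAs are made inside the organelle, while its proteins are encoded by scattered nuclear genes, made in the cytosol and imported. In the gastric corpus the acid-secreting parietal cells are among the most mitochondria-rich cells of the body, and PPARD is a nuclear receptor that is known for its control of fatty acid oxidation genes.

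The RNA was that of gastric corpus epithelium, detached from the opened stomach by manual scraping, and the series text gives 4 to 5 mice per group. Wild-type (WT) littermates were compared with villin-PPARD mice, whose name joins the villin promoter, known for driving expression in intestinal epithelium, to the receptor gene. Each genotype was sampled at 10 weeks with 5 libraries, at 25 weeks with 4, and at 55 weeks with 5. The sources used here do not say how the transgene was built, or whether its reads are counted as mouse Ppard, which was higher in villin-PPARD mice by 0.56, 0.31 and 0.23 on the log2 scale at 10, 25 and 55 weeks. Vil1, the gene of villin itself, was higher by 1.95, 2.07 and 3.28.

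Total counts ran from 10982888 to 30891108 per library. The cell types also differed between the genotypes. All 8 parietal cell markers fell at 10 weeks and 7 of 8 at 25 and at 55 weeks, with a median log2 difference of -0.75, -0.97 and -4.57, and the 8 markers summed to 5577 to 9693 CPM in WT mice at 55 weeks against 308 to 623 CPM in villin-PPARD mice. CPM are read counts set against the library total, here after scaling with TMM factors. The 5 chief cell markers summed to 23380 to 87230 CPM in the same WT mice and to 308 to 1323 CPM in the villin-PPARD mice, and the 4 pit cell markers to 134900 to 187900 and 33920 to 68440 CPM. Genes of dividing cells rose, 5 of 6 at 10 weeks and 6 of 6 at both later ages, and 7 of 7 leukocyte markers rose at 55 weeks. The 3 adipocyte markers stayed at or near 0 counts in every group. The part of these cell shifts in the differences given here was not tested, and in bulk RNA fewer cells of a type and less RNA per cell cannot be told apart.

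The large-subunit gene Mrpl53 had 2 counts over all 28 libraries and was not tested. It shares 87.97% of its exonic bases with other annotated genes, 695 bases of them with Gm42688 on the same strand. The other 77 members were tested among 15812 genes with edgeR's quasi-likelihood test, and a member is said to have risen or fallen where the Benjamini-Hochberg adjusted p was under 0.05. Of all 78 members, 33 share exonic bases with another gene. For overlaps on opposite strands the kit keeps no strand that would separate the reads, for those on the same strand the exons themselves coincide, and how the counting treated such reads is not known here.

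Per kilobase of transcript, the most abundant members were Mrps21, a small protein of the small subunit, at a mean of 62.3 CPM per kb over the 28 libraries, and the large-subunit genes Mrpl52 at 60.6, Mrpl42 at 46.0 and Mrpl54 at 43.4 CPM per kb. The 78 members together summed to 1421 to 1779 CPM in WT libraries and to 1360 to 1755 CPM in villin-PPARD libraries, so the ranges of the genotypes overlapped almost completely. The summed level of large-subunit genes was 2.18 to 2.23 times that of small-subunit genes in the 6 group means. As a share of raw counts, the members took 0.145% ± 0.0111 (SD, n = 5) in WT mice and 0.193% ± 0.0133 (SD, n = 5) in villin-PPARD mice at 55 weeks, against 0.147% ± 0.0035 and 0.149% ± 0.0035 (SD, n = 5 each) at 10 weeks. The genotypes did not overlap at 55 weeks in this share of raw counts, whose totals are not scaled by TMM, while they overlapped in the summed CPM.

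The promoter bases of 4 members are printed because these members changed at 2 or more ages and because their 150 bases upstream of the annotated start meet no annotated exon. The first 3 had the lowest mean difference among the members that met both conditions, and the fourth had the highest. Sequences and starts are those of RefSeq on GRCm38.p6, written 5′ to 3′ in the direction of transcription, and capitals mark matches to the motif letters searched.
Mrpl34 (chr8:71464776-71464925, plus strand): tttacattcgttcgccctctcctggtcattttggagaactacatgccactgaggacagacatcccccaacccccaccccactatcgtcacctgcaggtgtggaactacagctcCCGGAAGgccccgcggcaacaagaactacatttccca
Mrps36 (chr13:100744660-100744809, minus strand): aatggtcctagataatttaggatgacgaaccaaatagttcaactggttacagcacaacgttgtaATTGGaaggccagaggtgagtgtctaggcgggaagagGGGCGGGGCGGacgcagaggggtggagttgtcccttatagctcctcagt
Mrpl42 (chr10:95501950-95502099, minus strand): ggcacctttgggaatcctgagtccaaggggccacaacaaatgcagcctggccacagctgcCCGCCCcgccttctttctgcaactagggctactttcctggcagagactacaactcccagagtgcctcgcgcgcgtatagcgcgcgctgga
Mrpl45 (chr11:97315566-97315715, plus strand): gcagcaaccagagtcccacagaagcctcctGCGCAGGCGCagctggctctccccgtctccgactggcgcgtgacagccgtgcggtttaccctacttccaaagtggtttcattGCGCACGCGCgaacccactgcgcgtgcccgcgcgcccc

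Of the other members described here, Mrpl30 lies at chr1:37890477-37898535, Mrps21 at chr3:95862634-95871519, Mrpl24 at chr3:87919506-87923672, Mrpl3 at chr9:105053239-105079888, Mrpl13 at chr15:55534094-55557748 and Mrpl14 at chr17:45686322-45698495 on GRCm38. The capitals are an ETS core (CCGGAAG, bound by GABPA among others) in Mrpl34, 2 overlapping SP1 boxes (GGGCGG) and a CCAAT box on the opposite strand in Mrps36, an SP1 box on the opposite strand in Mrpl42, and 2 NRF1 sites in Mrpl45. NRF1 and GABPA are the classical activators of nuclear genes for mitochondrial proteins. Over windows from 250 bases before to 50 after the start, searched on both strands, the ETS core was present in 26 of the 69 members with a RefSeq window (37.68%), against 8.86% of 32851 windows and 18.45% of the tested genes. The NRF1 site was present in 13 members (18.84%, against 4.6% and 10.53%), and the YY1 site AAGATGGCG in 8 (11.59%, against 1.4% and 3.26%). The SP1 box was present in 49.28% of members against 65.79% of the tested genes, the CCAAT box in 39.13% against 42.43%, and the E-box CACGTG in 7.25% against 11.13%. The DR1 direct repeat, the type of element that PPAR receptors bind, was in 0 of the 69 members and in 0.04% of all windows. These matches describe the letters in the window and not binding.

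At 10 weeks, 7 members rose and 8 fell in villin-PPARD mice, where 34.0% of all tested genes were called (17.9% higher, 16.2% lower). The median log2 difference was -0.02 for the members and -0.03 for all genes. The median size of the difference, regardless of sign, was 0.13 for members and 0.31 for all genes. The libraries of the genotypes did not overlap for 6 members on the higher side and 10 on the lower side (14.5% and 11.1% of all genes). At 25 weeks 7 members rose and 17 fell, where 39.6% of all genes were called (21% higher, 18.6% lower). The median was -0.06 for members and -0.01 for all genes, and with library size alone as the scale it became 0.11, with 17 members higher and 6 lower.

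The count at 25 weeks rested on single libraries. Villin-PPARD replicate 3 had the highest sum over members of its group, 1755 CPM where the other 3 had 1360 to 1487, and it also had the highest sums of parietal markers (9267 CPM against 3964 to 6926) and chief markers (60420 CPM against 16500 to 34570). Without it 28 members fell, where 6807 of 16088 genes were called, 3332 of them higher. Without villin-PPARD replicate 2 the number was 10, where 5729 of 16099 genes were called, 3136 of them higher. Without WT replicate 1 it was 11, where 5598 of 16086 genes were called, 3088 of them higher. The libraries did not overlap for 4 members on the higher side and 6 on the lower side (14.9% and 12.4% of all genes).

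At 55 weeks the calls lay more on the higher side. In that comparison 18 members rose and 10 fell, where 59.3% of all genes were called (31.7% higher, 27.6% lower), and with library size alone 57 were higher and 0 lower. That scaling moved the median of all genes from 0.03 to 0.43 and its higher share of calls from 53.4% to 78.9%, and the median of the members from 0.06 to 0.47. At 25 weeks it moved the median of all genes from -0.01 to 0.15 and the higher share of calls from 53% to 74.5%. Differences given from here on are relative to TMM scaling. Non-overlapping libraries at 55 weeks were found for 14 members on the higher side and 9 on the lower side (23.9% and 19.4% of all genes).

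**Figure D1:**
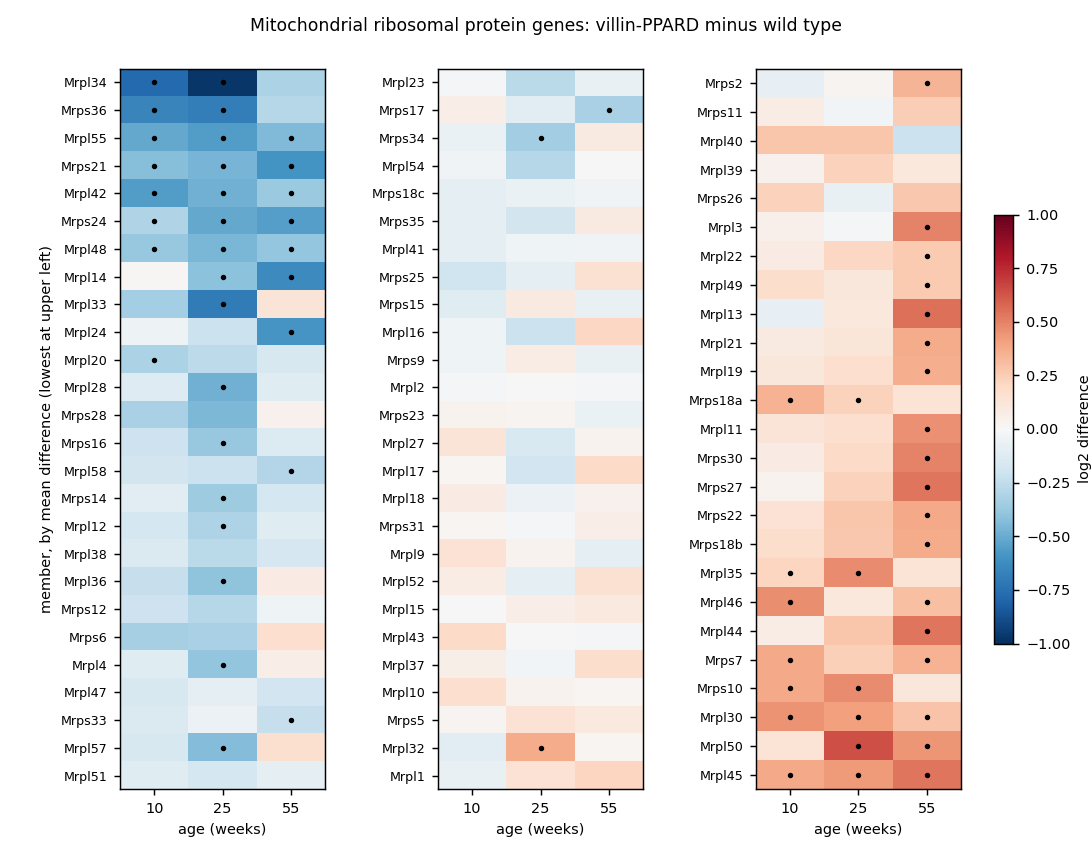
Log2 difference between villin-PPARD and wild-type mice (colour) for the 77 tested members at 10, 25 and 55 weeks. Members are ordered by their mean over the ages, and a black dot marks an adjusted p under 0.05. The dots lie at both ends of the order, on 8 lower and 7 higher members at 10 weeks, 17 lower and 7 higher at 25 weeks, 10 lower and 18 higher at 55 weeks.

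Over the 3 ages, 44 members changed at 1 or more ages (57.14%, against 75.43% of all genes), and 0 rose at one age and fell at another. Another 33 changed at no age, 28 changed at 1 age and 9 at 2 ages. Another 7 changed at all 3 ages (9.09%, against 17.7% of all genes). Of these, Mrpl42, Mrpl48, Mrpl55, Mrps21 and Mrps24 fell, and Mrpl30 and Mrpl45 rose. These genes belong to both subunits, and 5 of them share no exonic base with another gene. Mrps24 shares 226 bases with Urgcp and Mrpl48 shares 708 with Rab6a. Mrpl48 was chosen for description after its values were seen.

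Mrpl42 encodes a mitochondria-specific protein of the large subunit. At 10 weeks it had 35.9, 37.0, 35.9, 38.7 and 37.5 CPM in WT mice and 21.9, 24.6, 27.8, 23.4 and 27.5 CPM in villin-PPARD mice. At 25 weeks the values were 38.4, 39.0, 35.7 and 35.9 against 24.6, 25.8, 32.7 and 23.2 CPM, and at 55 weeks 27.9, 39.1, 30.2, 32.7 and 34.6 against 27.1, 24.5, 27.5, 23.9 and 24.2 CPM. Every villin-PPARD library lay below every WT library of its age, though by little in the oldest mice. The log2 differences were -0.56 ± 0.09 (SE), -0.48 ± 0.10 and -0.37 ± 0.09, with edgeR adjusted p-values of 2.95e-05, 0.00058 and 0.000958, and with library size alone the value at 55 weeks was 0.04.

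Mrps21, the most abundant member per kilobase, followed the same order. It had 31.7, 32.4, 35.1, 38.4 and 41.2 CPM in WT mice at 10 weeks against 31.01, 26.6, 23.3, 25.7 and 26.1 CPM, and 29.5, 36.1, 36.7, 34.0 and 37.2 CPM at 55 weeks against 23.2, 23.1, 24.4, 21.01 and 22.7 CPM. The groups did not overlap at any of the 3 ages. The log2 differences were -0.43 ± 0.10, -0.46 ± 0.11 and -0.60 ± 0.10 at 10, 25 and 55 weeks (edgeR adjusted p = 0.00105, 0.00132 and 4.05e-06). With library size alone the value at 55 weeks was -0.20 and did not pass (adjusted p = 0.076). Without replicates 4 and 5 of both genotypes, the value at 10 weeks was -0.32 with an adjusted p of 0.0653.

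Mrpl55, a large-subunit protein with a bacterial counterpart, fell by 0.51, 0.56 and 0.44 on the log2 scale, the last of which was -0.04 with library size alone (edgeR adjusted p = 0.829). Its level at 10 weeks was 14.2 ± 0.352 CPM (SD, n = 5) in WT and 9.95 ± 1.16 CPM in villin-PPARD mice. Mrps24, a small-subunit protein with a bacterial counterpart, fell by 0.30, 0.51 and 0.55. In the oldest mice its mean was 37.8 ± 5.5 CPM in the WT and 25.8 ± 2.9 CPM in the villin-PPARD group (SD, n = 5). With library size alone the differences at 25 and 55 weeks were -0.34 and -0.15, and neither passed (edgeR adjusted p = 0.0515 and 0.286). Its call at 10 weeks (edgeR adjusted p = 0.0412) was lost without any one of WT replicates 1, 3, 4 and 5 or villin-PPARD replicates 2, 4 and 5, with adjusted p from 0.0539 to 0.0907. Mrpl48, mitochondria-specific and in the large subunit, fell by 0.38, 0.46 and 0.38 and did not overlap at any age in TMM-scaled CPM. The TMM factors at 55 weeks were 0.90 to 1.03 in WT and 1.19 to 1.39 in villin-PPARD libraries. A value with library size alone is not given here for Mrpl48, so its fall at 55 weeks holds for TMM scaling only. Its highest villin-PPARD library at 25 weeks was replicate 3, at 11.2 CPM where the others had 8.49 to 8.67.

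Both members that rose at all ages belong to the large subunit. Mrpl45 encodes the mitochondria-specific protein near the exit of the ribosome's peptide tunnel, where the ribosome meets the inner membrane. It had 15.8, 15.5, 14.4, 14.6 and 14.03 CPM in WT mice at 10 weeks and 19.4, 19.6, 18, 20.8 and 19.0 CPM in villin-PPARD mice, and at 55 weeks 14.9, 14.5, 15.4, 15.4 and 15.9 against 22.02, 22.9, 23.1, 19.1 and 23.02 CPM. WT mice stayed within 13.99 and 17.2 CPM at all ages, and every villin-PPARD library was above them. The log2 differences were 0.38 ± 0.09, 0.43 ± 0.10 and 0.53 ± 0.09 (edgeR adjusted p = 0.00143, 0.00122 and 5.9e-06). The call at 10 weeks was lost without replicates 4 and 5 of both genotypes (0.30, adjusted p = 0.0764), and that at 25 weeks when only the groups compared were fitted (0.37, adjusted p = 0.0557). Its printed promoter bases hold 2 NRF1 sites, and the longer window searched holds another at +15. Mrps21, which fell at all ages, also has an NRF1 site in its window. Any part of these sites in the differences was not tested.

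Mrpl30, the counterpart of a bacterial large-subunit protein, rose by 0.45 ± 0.09, 0.41 ± 0.10 and 0.28 ± 0.09 on the log2 scale (edgeR adjusted p = 0.000424, 0.00282 and 0.01). At 10 weeks it had 29.2, 23.7, 26.9, 24.9 and 30.4 CPM in WT mice against 38.6, 37.4, 31.6, 39.5 and 37.7 CPM in villin-PPARD mice. At 55 weeks it had 23.5, 23.4, 25.5, 26.2 and 24.8 against 31.7, 33.1, 33.0, 26.04 and 26.3 CPM, where villin-PPARD replicate 4 lay within the range of the WT mice and replicate 5 just above it. Its start lies 66 bases from that of Mitd1, which is transcribed in the other direction. Mitd1 rose as well, by 1.25, 1.57 and 0.89.

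**Figure D2:**
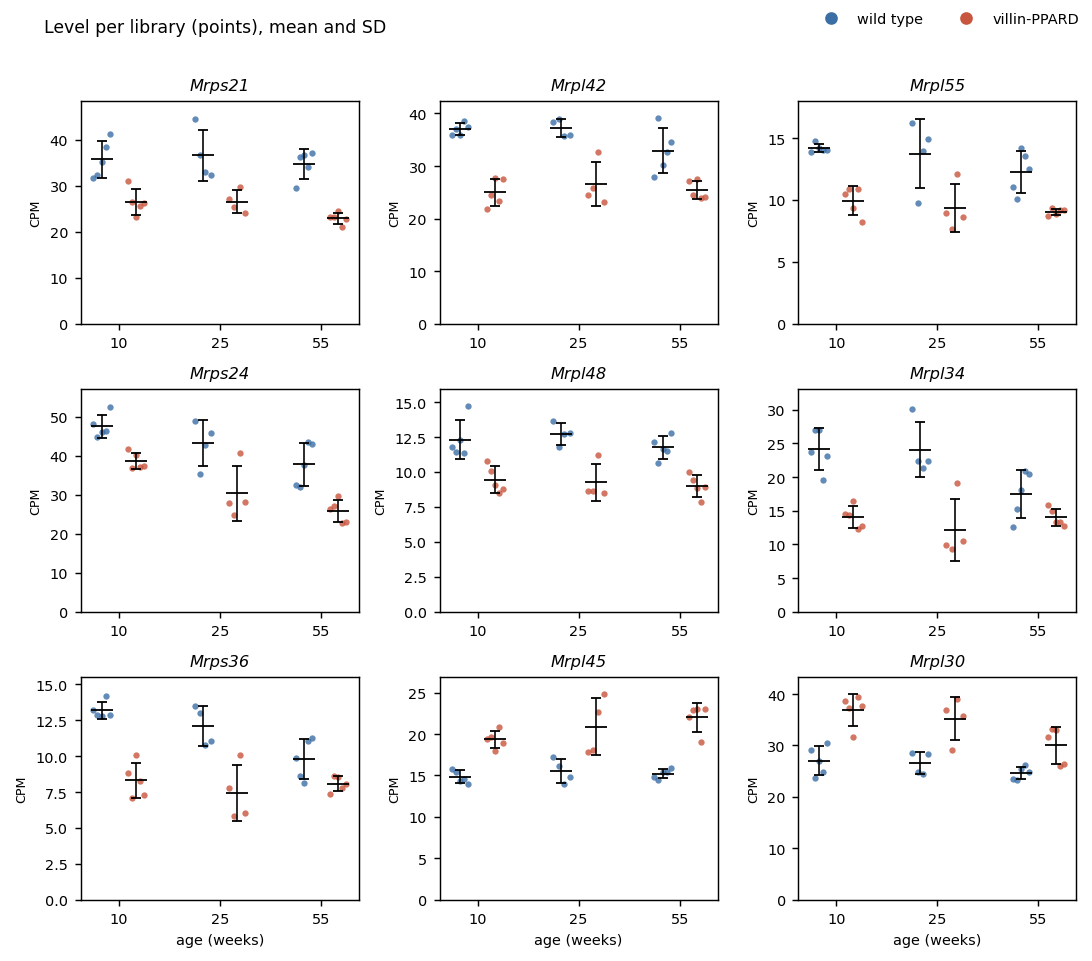
CPM in each library (points) of 9 members by age, in wild-type (blue) and villin-PPARD (red) mice, with the group mean and SD (black; n = 5, 4 and 5 libraries per genotype at 10, 25 and 55 weeks). Mrps21, Mrpl42 and Mrpl48 have no overlap between genotypes at any age on the lower side, nor has Mrpl45 on the higher side, while Mrpl34 and Mrps36 overlap at 55 weeks.

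The lowest differences at the earlier ages belonged to Mrpl34 and Mrps36. Mrpl34 encodes one of the shortest proteins of the large subunit, with a bacterial counterpart. At 10 weeks it had 23.8, 27.0, 27.1, 19.6 and 23.2 CPM in WT mice against 14.6, 14.3, 16.4, 12.3 and 12.7 CPM, and at 25 weeks 30.1, 22.4, 21.3 and 22.4 against 9.94, 9.24, 19.1 and 10.4 CPM. The genotypes were separate at both ages. The log2 differences were -0.78 ± 0.16 and -0.97 ± 0.18 (edgeR adjusted p = 0.000395 and 0.000115). At 55 weeks WT mice had 12.6, 15.3, 18.1, 20.9 and 20.5 CPM and villin-PPARD mice 15.8, 14.9, 13.4, 13.3 and 12.7 CPM, which overlap, and the difference of -0.32 ± 0.16 did not pass (adjusted p = 0.0832). That difference did pass with limma-voom (-0.42, adjusted p = 0.00497). It also passed by edgeR with only the groups compared (-0.355, adjusted p = 0.0361) and without WT replicate 1 (-0.42, 0.0235). The change of the difference from 25 to 55 weeks, 0.65 ± 0.24, did pass (adjusted p = 0.0389), but it was lost without any one of WT replicate 1 and villin-PPARD replicates 1, 2 and 4 of 25 weeks or WT replicates 1 and 2 and villin-PPARD replicates 1 and 2 of 55 weeks.

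Mrps36, of the oxoglutarate dehydrogenase complex, went from 13.2 ± 0.603 CPM in WT to 8.33 ± 1.23 CPM in villin-PPARD mice at 10 weeks (SD, n = 5). At 25 weeks the means were 12.1 ± 1.37 and 7.42 ± 1.96 CPM (SD, n = 4). The log2 differences were -0.66 ± 0.13 and -0.69 ± 0.14, and -0.28 ± 0.13 at 55 weeks, where it did not pass (edgeR adjusted p = 0.055). DESeq2 gave -0.31 there with an adjusted p of 0.0252. The 3 pseudogenes named for it had no counts.

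Members that rose at the earlier ages included Mrps10, a small-subunit protein with a bacterial counterpart, Mrps18a and Mrpl35, of which the last rose by 0.22 at 10 weeks in a call lost in 9 of the 10 fits that left out 1 library. Mrps10 had 24.8, 26.1, 25.1, 26.1 and 26.8 CPM in WT mice and 34.9, 33.8, 31.9, 33.9 and 33.1 CPM in villin-PPARD mice at 10 weeks, and 28.4, 27.3, 25.9 and 23.3 against 36.2, 36.6, 34.9 and 38.0 CPM at 25 weeks. At 55 weeks the levels were 31.2, 28.4, 26.1, 27.3 and 28.2 against 30.6, 31.7, 32.9, 28.8 and 28.9 CPM. The genotypes were far apart at 10 and 25 weeks and overlapped at 55 weeks. The log2 differences were 0.38 ± 0.07, 0.47 ± 0.08 and 0.11 ± 0.07 (edgeR adjusted p = 8.35e-05, 1.95e-05 and 0.154). The difference was smaller at 55 than at 10 weeks by a log2 change of -0.27 ± 0.10 (adjusted p = 0.0284; 0.0646 without WT replicate 1 and 0.0639 without villin-PPARD replicate 5 of 55 weeks), and with library size alone that change was 0.09.

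Mrpl46 rose by 0.46 at 10 weeks and by 0.30 at 55 weeks, and Mrps7, which helps to form the small subunit's tRNA sites, by 0.38 and 0.35. At 55 weeks the call of Mrpl46 (edgeR adjusted p = 0.018) was lost without WT replicate 1 or villin-PPARD replicates 2 or 3, with adjusted p from 0.0578 to 0.0654. Mrpl46 shares 173 exonic bases with another member, Mrps11, on the opposite strand. Mrpl50 rose at 25 and 55 weeks by 0.64 and 0.44. At 25 weeks it had 13.2, 23.6, 14.8 and 14.4 CPM in WT mice and 26.6, 22.1, 24.6 and 28.7 CPM in villin-PPARD mice, where WT replicate 2 alone lay within the villin-PPARD range.

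At 55 weeks the largest rises were those of Mrpl13, Mrps27, Mrpl44, Mrpl45 and Mrps30, and for 4 of them the difference had grown since 10 weeks. Mrpl13, a large-subunit protein with a bacterial counterpart, had 14.4, 13.8, 12.2, 14.2 and 14.3 CPM in WT mice and 15.5, 12.9, 12.8, 11.8 and 12 CPM in villin-PPARD mice at 10 weeks, and the groups overlapped. At 55 weeks it had 12.9, 11.5, 12.6, 13.5 and 12.7 against 20.4, 15.8, 17.9, 19.5 and 18.5 CPM, and they did not. The log2 difference went from -0.08 ± 0.10 to 0.55 ± 0.10, a change of 0.63 ± 0.14 (edgeR adjusted p = 0.000588). Within villin-PPARD mice Mrpl13 rose by 0.51 from 10 to 55 weeks. It shares 330 exonic bases with Mtbp on the other strand.

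Mrpl3, which lies near the peptide-bond centre of the large subunit, behaved in the same way. It had 17.3, 17.7, 16.4, 19.3 and 18.6 CPM in WT mice and 17.96, 20.1, 16.4, 19.2 and 19.0 CPM in villin-PPARD mice at 10 weeks, and 15.1, 15.8, 15.5, 18.5 and 17.1 against 23.3, 23.6, 24.2, 21.6 and 22.9 CPM at 55 weeks. The groups overlapped at the first age and were separate at the last. The change of the difference was 0.44 ± 0.11 from 10 weeks and 0.51 ± 0.12 from 25 weeks (edgeR adjusted p = 0.00247 and 0.00182), and it was called in every fit that left out 1 library. Mrpl3 shares 3.72% of its exonic bases with other annotated genes.

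Mrps27, a small-subunit protein with RNA-binding repeats, went from 10.1 ± 0.695 CPM in WT to 14.7 ± 1.05 CPM in villin-PPARD mice at 55 weeks (SD, n = 5), a log2 difference of 0.54 ± 0.12. Mrpl44, a large-subunit protein with a domain related to ribonuclease III, went from 9.21 ± 0.968 to 13.4 ± 1.22 CPM, a difference of 0.53 ± 0.11. Mrps30, which by structure is a large-subunit protein in spite of its name, went from 12.6 ± 1.96 to 17.9 ± 1.02 CPM, a difference of 0.49 ± 0.11. The changes of the difference since 10 weeks were 0.50, 0.45 and 0.41, with edgeR adjusted p-values of 0.0241, 0.0204 and 0.0428. That of Mrps27 was lost without villin-PPARD replicate 1 of 55 weeks (adjusted p = 0.052) and with no filter (0.0551), that of Mrpl44 with no filter (0.0675) and without 10-week replicates 4 and 5 (0.0814), and that of Mrps30 was lost in 11 of the 20 fits that left out 1 library. At 25 weeks Mrps27 stood at 10.5, 11.01, 18.4 and 10.7 CPM in villin-PPARD mice, with replicate 3 far above the others. Mrps27, Mrpl44 and Mrps30 share 24.18%, 7.66% and 9.35% of their exonic bases with other genes, all on the opposite strand.

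On the lower side the largest differences at 55 weeks were those of Mrpl14, Mrps21, Mrpl24 and Mrps24. Mrpl14, a large-subunit protein with a bacterial counterpart, had 34.0, 26.2, 28.4, 30.9 and 39.3 CPM in WT mice and 35.5, 31.7, 28.8, 32.8 and 30.5 CPM in villin-PPARD mice at 10 weeks, and 27.4, 23.9, 29.3, 34.3 and 29.3 against 16.98, 21.6, 22.2, 15.1 and 17.2 CPM at 55 weeks. The genotypes overlapped at 10 weeks and were separate at 55 weeks. The log2 difference was 0.01 ± 0.13, -0.41 ± 0.14 and -0.64 ± 0.13 at the 3 ages, and its change from 10 to 55 weeks was -0.64 ± 0.18 (edgeR adjusted p = 0.00489). With library size alone that change was -0.29 and the differences at 25 and 55 weeks were -0.25 and -0.24, none of which passed (adjusted p = 0.179, 0.158 and 0.0877). The call at 25 weeks was lost without WT replicate 1 (-0.25, adjusted p = 0.157), without villin-PPARD replicate 1 (0.0536) or without replicate 2 (0.0736).

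Mrpl24, another large-subunit protein with a bacterial counterpart, was called higher at 55 than at 10 weeks in WT mice and lower in villin-PPARD mice. Both age calls depended on the fit. In WT mice it had 41.9, 49.3, 50.2, 46.0 and 45.6 CPM at 10 weeks and 47.1, 64.3, 62.7, 54.05 and 56.3 CPM at 55 weeks, a rise of 0.29 ± 0.09 on the log2 scale (edgeR adjusted p = 0.0279). In villin-PPARD mice it had 48.3, 47.5, 41.9, 44.4 and 42.6 CPM and then 39.9, 34.9, 39.7, 38.5 and 35.8 CPM, a change of -0.25 ± 0.09 (adjusted p = 0.0159). The rise was lost without WT replicate 1 of 10 weeks or WT replicates 2 or 3 of 55 weeks, and the fall without villin-PPARD replicates 2 or 5 of 55 weeks, while with library size alone the fall became 0.17. With a term for library group, described below, neither passed (0.32 and -0.21, edgeR adjusted p = 0.0601 and 0.0754). The rise was also lost with no filter (0.0833), with only the groups compared (0.062) and without 10-week replicates 4 and 5 (0.133). The difference between genotypes went from -0.05 ± 0.09 to -0.59 ± 0.09, a change of -0.54 ± 0.12 (adjusted p = 0.000859) that was called in every fit that left out 1 library. With library size alone the difference at 55 weeks was -0.18 and the change -0.16 (adjusted p = 0.0904 and 0.324). Mrpl24 shares 594 exonic bases, 26.34% of its own, with Rrnad1 on the opposite strand.

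Mrps17, a small-subunit protein with a bacterial counterpart, had 31.3, 28.9, 31.8, 32.0 and 31.01 CPM in WT mice and 25.9, 26.2, 25.4, 23.6 and 22.6 CPM in villin-PPARD mice at 55 weeks. The groups were separate there, and at 10 weeks they overlapped at means of 29.4 and 30.8 CPM. The log2 difference at 55 weeks was -0.32 ± 0.07, or 0.08 with library size alone. Its change since 10 weeks was -0.39 ± 0.10 (edgeR adjusted p = 0.00198), and -0.03 with library size alone (0.879).

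**Figure D3:**
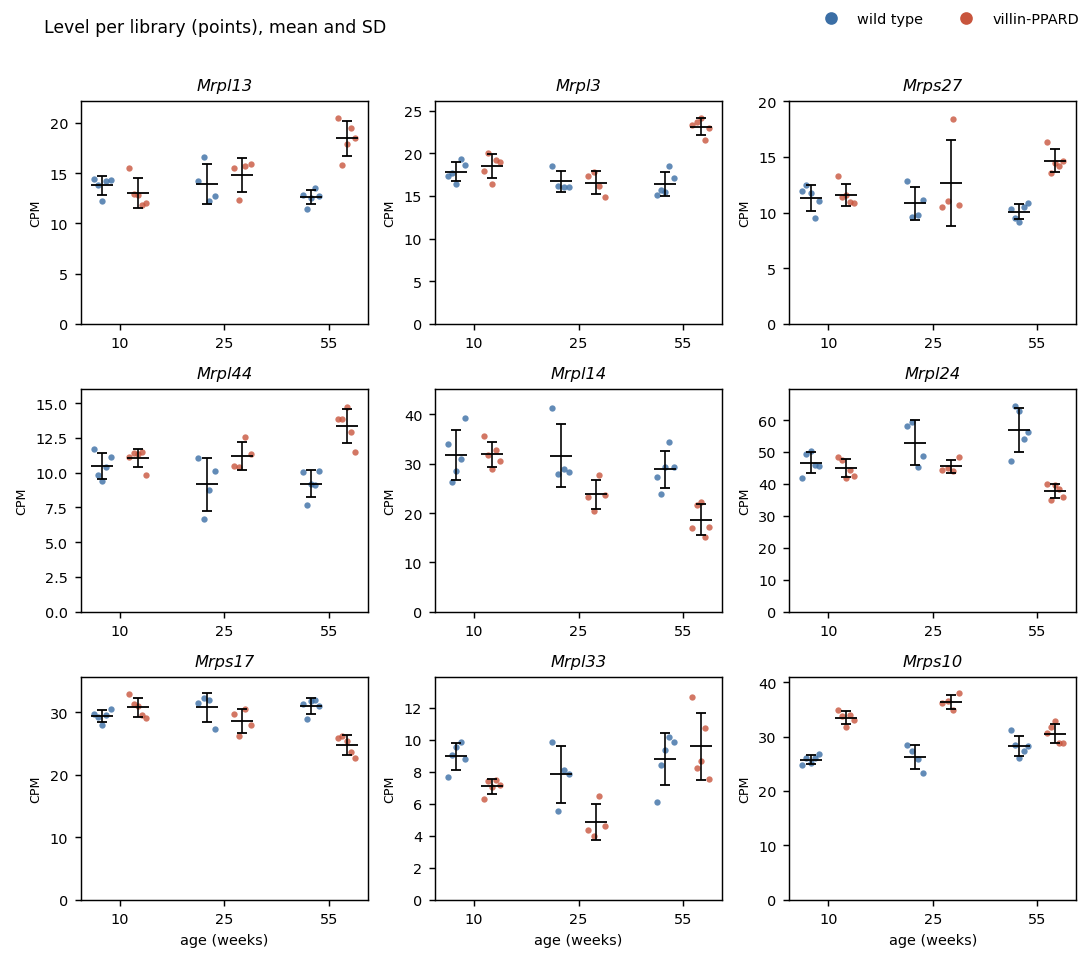
CPM in each library (points) of 9 members by age, in wild-type (blue) and villin-PPARD (red) mice, with the group mean and SD (black; n = 5, 4 and 5 libraries per genotype at 10, 25 and 55 weeks). Mrpl13, Mrpl3, Mrps27 and Mrpl44 part upwards at 55 weeks, Mrpl14, Mrpl24 and Mrps17 part downwards, and the genotypes of Mrps10 come together.

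In all, the difference between genotypes changed from 10 to 55 weeks for 12 members, 7 upwards and 5 downwards (36.4% of all genes), and from 25 to 55 weeks for 12, with 8 upwards and 4 downwards (28.9% of all genes). From 10 to 25 weeks it changed for 0 members by edgeR, DESeq2 and limma-voom (0.00632% of all genes by edgeR), while 4, 4 and 19 members had an unadjusted p under 0.05. The count from 25 to 55 weeks was 25 without villin-PPARD replicate 3 of 25 weeks, 6 without replicate 1 or without replicate 4, and 7 without WT replicate 4. In the same fits 5148 of 16088, 3944 of 16086, 4404 of 16094 and 3988 of 16068 genes were called. Among the upward changes from 25 to 55 weeks were Mrpl33 (0.83 ± 0.24), Mrpl57 (0.59 ± 0.18) and Mrpl4 (0.46 ± 0.15), each lower in villin-PPARD mice at 25 weeks by 0.70, 0.43 and 0.40 on the log2 scale and at 0.13, 0.16 and 0.06 at 55 weeks. The 25-week call of Mrpl57 was lost without WT replicate 1 or villin-PPARD replicate 2, and the change of Mrpl4 without WT replicate 1 or villin-PPARD replicate 1 of 25 weeks. With library size alone the 25-week differences of Mrpl57 and Mrpl4 were -0.27 and -0.23 and did not pass (edgeR adjusted p = 0.174 and 0.158). Of the 4 downward changes, 1 was left without WT replicate 3 of 25 weeks.

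Age alone moved few members in WT mice. From 10 to 25 weeks 0 of 77 were called by edgeR, DESeq2 or limma-voom (0.0126% of all genes by edgeR), with 0, 0 and 1 at an unadjusted p under 0.05. From 10 to 55 weeks Mrpl24 rose and Mrpl34, Mrps36 and Mrpl54 fell by 0.46, 0.42 and 0.33, against 12.7% of all genes (6.43% higher, 6.26% lower). The median over members was -0.09, and 0.00 over all genes. The number of calls was 0 without WT replicate 2 or replicate 3 of 55 weeks, 1 without WT replicate 1 of 10 weeks, 2 without any other single WT library of 10 weeks or replicate 1 of 55 weeks, 9 without replicate 4 of 55 weeks and 7 without replicate 5. Of all genes, 1203 of 15786 and 1593 of 15796 were called where 0 members were, and 1299 of 15794 where 1 was. The fits with 2 members called 1402 to 1972 genes. Those with 9 and 7 members called 1956 of 15798 and 1754 of 15774 genes.

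In villin-PPARD mice, Mrpl32 alone rose from 10 to 25 weeks (0.47; 2.81% of all genes called, 1.99% higher and 0.822% lower), which became 0 members without replicates 1, 2 or 5 of 10 weeks or replicates 1, 2 or 4 of 25 weeks, and 16 without replicate 3 of 25 weeks. Without that replicate 3, 1862 of 16088 genes were called, and the fits with 0 members called from 64 of 15816 to 263 of 15821 genes. From 10 to 55 weeks 11 members rose and 12 fell (51.7% of all genes, 27.2% higher and 24.5% lower), with Mrpl13, Mrpl50 and Mrpl33 rising by 0.51, 0.44 and 0.44 and with Mrpl14 and Mrps24 falling by 0.78 and 0.58. The rise of Mrpl33 was lost without replicate 1 of 55 weeks (0.31, edgeR adjusted p = 0.0949). Column names in the table tag the 10-week replicates 1 to 3 and 7 of the 8 libraries of 25 weeks as one library group, and the 10-week replicates 4 and 5 and all 55-week libraries as another. The column of WT replicate 3 of 25 weeks is tagged as a replacement and carries neither group, so at 25 weeks the genotypes do not fully share a group. Since 10-week libraries of both genotypes lie in both groups, a term for library group could be fitted, in which the replacement is a group of its own and so drops out of the comparisons. With that term, 5 members rose and 18 fell at 25 weeks, 19 rose and 10 fell at 55 weeks, and from 10 to 55 weeks 7 rose and 11 fell in villin-PPARD mice and 0 were called in WT mice. In that order the fit with this term called 5661, 9338 and 7154 of 15812 genes, with 2994, 4987 and 3701 of them higher. In WT mice it called 626. Without the replacement library, 5 members rose and 19 fell at 25 weeks, where 5688 of 16087 genes were called, 3019 of them higher.

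Some members have roles besides building the ribosome, or have paralogues. Mrpl12, of the ribosomal stalk, is also known to bind the mitochondrial RNA polymerase. It differed by -0.17, -0.30 and -0.12 at the 3 ages, with a call at 25 weeks (edgeR adjusted p = 0.0424) that was lost without WT replicates 1 or 4 or villin-PPARD replicates 1, 2 or 4. Mrpl58, a release factor homologue that rescues stalled ribosomes, fell at 55 weeks by 0.29 (adjusted p = 0.0142; 0.0597 without WT replicate 5), and with library size alone its value was 0.10. The 3 Mrps18 paralogues differed among themselves. Mrps18a, which sits in the large subunit, rose by 0.35 at 10 weeks and by 0.23 at 25 weeks, the latter lost in 6 of the 8 fits that left out 1 library. Mrps18b, in the small subunit, rose by 0.37 at 55 weeks, and Mrps18c was called at no age, at -0.10, -0.06 and -0.03. Mrps12, of the decoding centre, Mrps6 and Mrpl41 were called at no age.

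Both subunits had members that rose and members that fell. Among 50 large-subunit genes 5, 6 and 13 rose and 5, 11 and 6 fell at 10, 25 and 55 weeks, with medians of 0.00, -0.04 and 0.07. Among 26 small-subunit genes 2, 1 and 5 rose and 2, 5 and 4 fell, with medians of -0.07, -0.06 and 0.08. Of all genes 17.9%, 21% and 31.7% rose and 16.2%, 18.6% and 27.6% fell, which is the background for every count in this paragraph. Of the 46 members with bacterial counterparts 9 rose and 6 fell at 55 weeks, and of the 30 tested mitochondria-specific members 9 rose and 4 fell. Of the 32 tested members that share exonic bases with another gene, 2, 0 and 11 rose and 2, 7 and 5 fell at 10, 25 and 55 weeks. Of the 45 that share none, 5, 7 and 7 rose and 6, 10 and 5 fell. The part of the overlaps in these counts was not tested. The 25 tested members with an ETS core in the promoter had 6 rises and 4 falls at 55 weeks, and the 43 with a window lacking it had 10 and 6. The 13 with an NRF1 site had 3 rises and 2 falls at that age, and the 55 with a window lacking it had 13 and 8.

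The members were split into 3 classes by coding length, beside other genes of the same lengths. Among the 26 members with the shortest coding sequences (195 to 480 bases), 1, 2 and 2 rose and 6, 11 and 6 fell at 10, 25 and 55 weeks, with medians of -0.13, -0.28 and -0.06. Of 1014 other genes of those lengths, 9.96%, 11.74% and 22.49% rose and 25.54%, 27.42% and 36.29% fell, with medians of -0.14, -0.16 and -0.12. The share of short members that fell was thus at or below that of other short genes at 10 and 55 weeks and above it at 25 weeks. Among the 26 of middle length (498 to 756 bases), 4, 4 and 6 rose and 2, 4 and 4 fell, with medians of 0.03, -0.04 and 0.13. Of 1555 other genes of those lengths, 16.78%, 19.16% and 29.0% rose and 18.46%, 19.87% and 28.49% fell. Their medians were -0.02, -0.003 and 0.004. Among the 25 longest (762 to 1326 bases), 2, 1 and 10 rose and 0, 2 and 0 fell, with medians of 0.03, 0.07 and 0.11. Of 3619 other genes of those lengths, 18.6%, 21.06% and 31.39% rose and 16.74%, 19.4% and 27.36% fell, with medians of -0.04, -0.01 and 0.03. Across the 77 members, Spearman's rho between coding length and log2 difference was 0.40, 0.52 and 0.41 at the 3 ages, and across 13456 genes it was 0.10, 0.10 and 0.09. For transcript length rho was 0.23, 0.37 and 0.32 across members and 0.05, 0.13 and 0.07 across those genes. For the percentage of G and C bases it was -0.00, -0.22 and -0.17 across members and 0.07, -0.28 and -0.08 across those genes. These are descriptions across genes of the same libraries, and genes are not independent replicates.

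**Figure D4:**
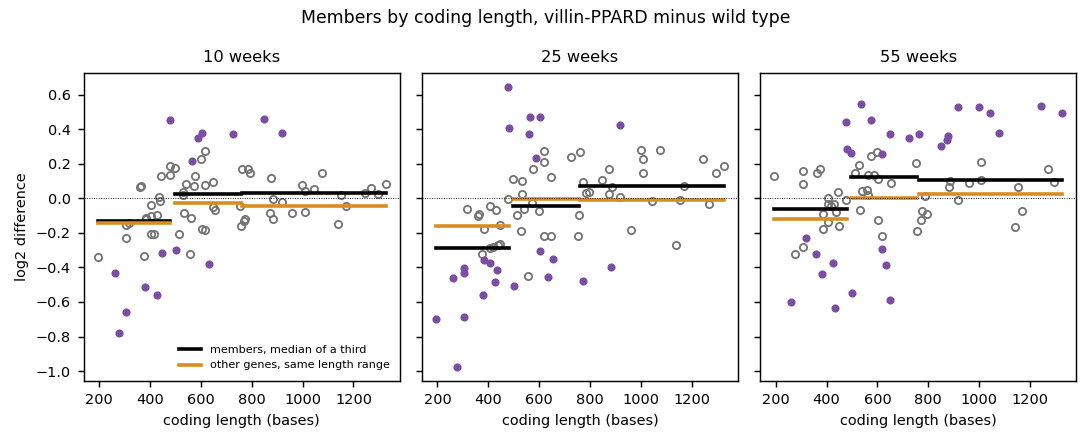
Log2 difference between villin-PPARD and wild-type mice against coding length in bases for the 77 members at 10, 25 and 55 weeks. Filled points have an adjusted p under 0.05, black bars are the medians of members in 3 length classes and orange bars those of other genes of the same lengths. Filled points below 0 lie mostly at the left, where the shortest members have medians of -0.13, -0.28 and -0.06.

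Head-to-head gene pairs are common among the members. A protein-coding gene starts on the opposite strand within 1000 bases upstream, or overlapping by up to 200 bases, for 23 of 78 members (29.49%, against 7.90% of 21330 protein-coding genes). In the 22 pairs with both genes tested, the member was called in 2, 6 and 8 pairs and its partner in 8, 10 and 10 at 10, 25 and 55 weeks. Both changed in the same direction in 1, 3 and 3 pairs, and in opposite directions in 0, 1 and 0. Whether members and partners change together more often than unrelated genes was not tested. Mrpl30 and Mitd1 made up the pair at 10 weeks. The opposite pair was Mrpl57, which fell by 0.43 at 25 weeks, and Ska3, a gene of the mitotic spindle's attachment to chromosomes, which rose by 0.78. Mrpl36 and Ndufs6, a complex I subunit, fell together at 25 weeks by 0.40 and 0.51, and Ndufs6 also fell at 55 weeks, by 0.44, where Mrpl36 stood at 0.08.

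Most nuclear genes listed for the respiratory chain and ATP synthase, whose products join those made on this ribosome, fell at every age. Of 34 such structural genes, 0 rose at any age and 30, 31 and 29 fell at 10, 25 and 55 weeks, with medians of -0.41, -0.54 and -0.53. Summed, they had 4634 to 5783 CPM in WT mice and 3623 to 4339 CPM in villin-PPARD mice at 55 weeks, without overlap, where the sums over the ribosomal members were 1421 to 1581 and 1418 to 1624 CPM. The share of counts from genes of the mitochondrial DNA itself was 11.9% ± 5.47 (SD, n = 5) in WT and 3.24% ± 1.30 in villin-PPARD mice at that age. The library preparation selects polyadenylated RNA, and these shares are given with that limit.

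**Figure D5:**
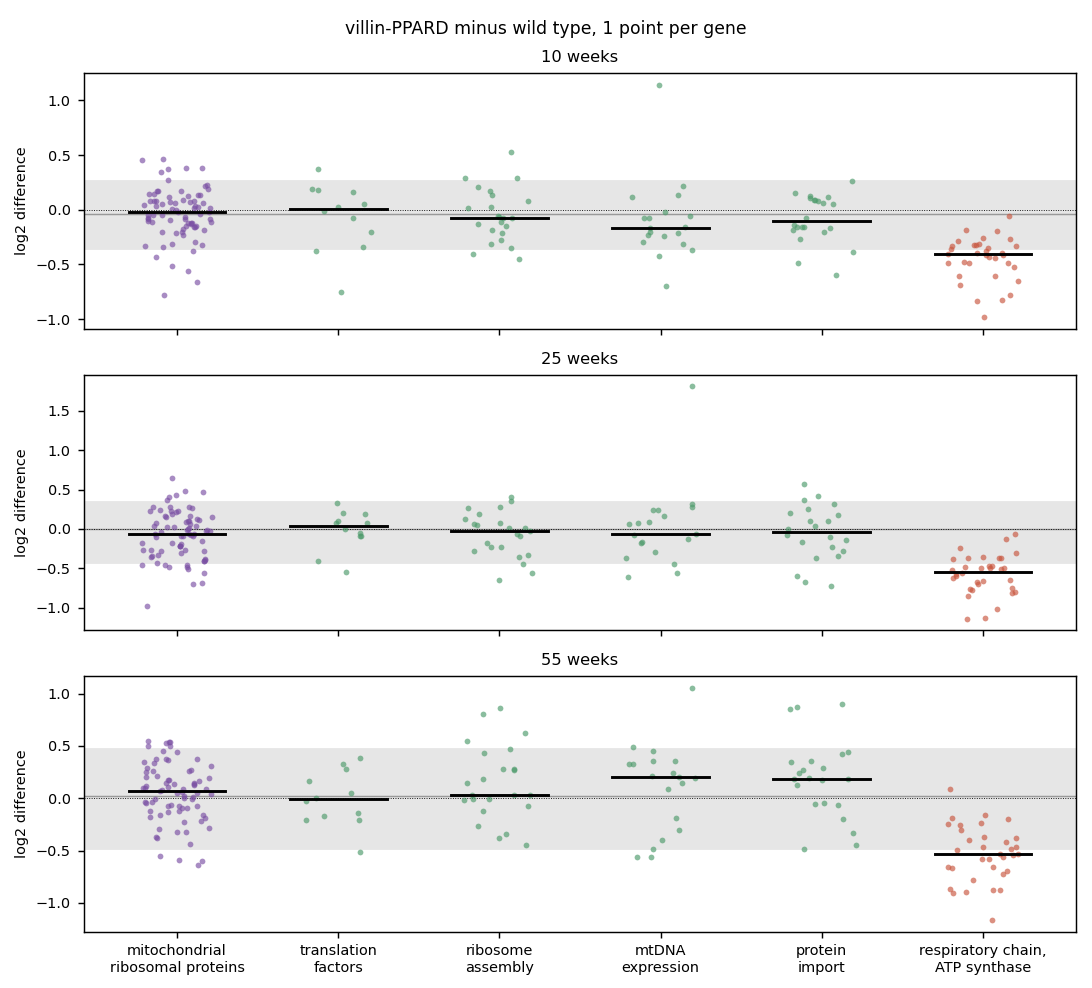
Log2 difference between villin-PPARD and wild-type mice for each gene (points) of 6 lists at 10, 25 and 55 weeks, with the list median (black bar) and the interquartile range of all 15812 genes (grey band). The medians of the mitochondrial ribosomal proteins are -0.02, -0.06 and 0.06, near those of all genes, while those of the respiratory chain and ATP synthase genes are -0.41, -0.54 and -0.53.

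Other genes of mitochondrial gene expression had calls in both directions. The 5 mitochondrial ribosomal proteins with symbols of another kind had 2 falls at 10 weeks (Ptcd3 by 0.43, Chchd1 by 0.24) and 1 rise at 55 weeks (Gadd45gip1 by 0.40), while Dap3 and Aurkaip1 were called at no age. Of 12 translation factors, 1, 1 and 3 rose and 2, 1 and 1 fell. The elongation factor gene Tufm rose by 0.33 at 55 weeks. Of 23 ribosome assembly genes, 2, 1 and 7 rose and 4, 5 and 3 fell, and of 19 genes for mitochondrial DNA upkeep and transcription, 1, 1 and 6 rose and 4, 4 and 5 fell. Protein import genes had 0, 5 and 9 rises and 3, 5 and 3 falls among 22 tested. At 55 weeks the membrane insertase gene Oxa1l, which docks the ribosome's exit side, rose by 0.35.

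Regulators known to act on such genes moved in both directions. Among 10 of them 5, 6 and 4 rose and 2, 2 and 3 fell. The coactivator Ppargc1b fell by 0.50, 0.73 and 0.93 and Ppargc1a by 0.75 at 10 weeks and 2.08 at 55 weeks, while Esrra, their partner receptor, fell by 0.31 and 0.46 at 25 and 55 weeks. Nrf1 rose by 0.51 and 0.29 at 10 and 25 weeks, Gabpb1 by 0.32 and 0.46 at the same ages and Gabpa by 0.57 at 25 weeks. Myc rose by 0.43, 0.70 and 2.0, Yy1 by 0.33, 0.62 and 0.35, and Pprc1, the coactivator of growth-related mitochondrial genes, by 0.79 at 55 weeks. These values stand beside those of the members, and whether any of them bears on the members was not tested.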

How the data were processed

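RNA was poly-A selected and sequenced as 75-bp pairs with a kit that does not mark strand, per the labels. The deposited values are whole-number counts per gene symbol. The submitters' processing notes name TopHat2 2.0.14, HTSeq 0.6.1, DESeq2 and mm10, while for the counting step neither annotation nor strand setting is given in the sources used here. Groups came from the genotype and age labels, and columns were matched by sample title.

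The members and gene lists were chosen with earlier results of these data known. Counts of all genes were filtered with filterByExpr, scaled by TMM and fitted with edgeR 4.0.16 (R 4.3.3) over the 6 groups by the quasi-likelihood test, with Benjamini-Hochberg adjustment over all 15812 genes tested and a threshold of 0.05. The scripts were tested on simulated data. Alternatives were DESeq2 1.42.0 (size factors and Wald test), limma-voom (limma 3.58.1), library size alone, no filter, only the groups compared, a library-group term, a replicate block, fits within library groups, and each library left out. Total counts of 10982888 to 30891108 limit the precision of members with few counts.

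Named members are the 5 highest and 5 lowest called per genotype comparison, the 4 most abundant per kilobase, up to 5 called per interaction by adjusted p, and 11 chosen for their role. Members named outside this rule, among them Mrpl48 and Mrpl36, were chosen after their values were seen. WT replicates 2 and 3 of 10 weeks had a chi-square per degree of freedom of 4.26, where the next lowest pair of replicates had 15.1 and the highest 169. They were kept as separate samples. P-values measure the spread between these samples, and whether every library came from a separate mouse was not tested.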

Additional observations from a re-analysis of the deposited data

Results flagged for a closer look

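In 204 groups of 4 or 5 libraries, 18 held a library far from the others of its group, by the gap to its nearest neighbour relative to the group's range, and chance gives about 1 in 20. In the 25-week villin-PPARD mice, replicate 3 stood apart at 19.1 CPM for Mrpl34, 28.9 for Mrpl4 and 18.4 for Mrps27, all high, and replicate 2 at 12.3 for Mrpl13, low. In the 25-week WT mice, replicate 1 stood apart at 41.3 CPM for Mrpl14, 18.5 for Mrpl3, 30.1 for Mrpl34 and 23.2 for Mrps18b, replicate 2 at 23.6 for Mrpl50 and 13.1 for Mrps30, and replicate 4 at 27.2 for Mrps17. At 10 weeks, WT replicate 3 had 12.2 CPM of Mrpl13, and villin-PPARD replicate 1 had 15.5 of Mrpl13, replicate 3 had 31.6 of Mrpl30 and replicate 5 had 9.85 of Mrpl44. At 55 weeks, WT replicate 1 had 3.30 CPM of Mrps6, and villin-PPARD replicate 4 had 19.1 of Mrpl45 and replicate 5 had 10.2 of Mrps12.

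The genotype difference changed with age, by the interaction term of the edgeR fit, for the following named members. From 10 to 55 weeks the log2 change was 0.63 for Mrpl13, 0.44 for Mrpl3, 0.45 for Mrpl44, 0.50 for Mrps27 and 0.41 for Mrps30, and it was -0.64 for Mrpl14, -0.54 for Mrpl24, -0.39 for Mrps17 and -0.27 for Mrps10. From 25 to 55 weeks it was 0.83 for Mrpl33, 0.65 for Mrpl34, 0.59 for Mrpl57, 0.51 for Mrpl3, 0.46 for Mrpl4 and 0.44 for Mrpl13, and it was -0.37 for Mrpl24, -0.36 for Mrps10 and -0.34 for Mrpl35. Of these, Mrpl35 lost its call in 13 of 18 fits that left out 1 library. Mrpl13 lost that from 25 to 55 weeks without WT replicate 2 or villin-PPARD replicate 2 of 25 weeks. The call of Mrpl24 from 25 to 55 weeks was lost in 7 of 18 such fits. Other edgeR fits also lost it, with no filter (adjusted p = 0.0694), a library-group term (0.0884), only the groups compared (0.0634) and library size alone (-0.125, 0.524). With library size alone the change of Mrps10 from 25 to 55 weeks was -0.12 (edgeR adjusted p = 0.452).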

How the results depend on the processing

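Of 83 calls of named members, 82 held with DESeq2 size factors and 82 with DESeq2's Wald test, 83 with limma-voom, 73 with only the groups compared, 69 with a library-group term, 66 with no filter and 65 with 10-week replicates 4 and 5 left out. With library size alone 54 held, 21 no longer passed and 8 reversed. That scaling gave 17 members higher, 6 lower and a median of 0.11 at 25 weeks, and 57, 0 and 0.47 at 55 weeks. The calls it reversed were Mrpl42 (0.0368), Mrpl58 (0.10) and Mrps17 (0.0785) at 55 weeks, Mrpl24 (0.17), Mrpl30 (0.12), Mrpl54 (0.13) and Mrps17 (0.11) from 10 to 55 weeks in villin-PPARD mice, and the change of difference of Mrps10 (0.0944) from 10 to 55 weeks. At 55 weeks it also reversed the sign of Mrpl12 (0.28), Mrpl41 (0.36) and Mrps12 (0.36), which were not called there with TMM scaling. The cause was not tested.

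At 10 weeks the higher count was 11 with limma-voom and 2 within the second library group, and the lower count was 4 with replicates 4 and 5 left out and 2 within the first library group. Of all genes, 3664 of 15812 were higher with limma-voom and 1120 of 16193 within the second group. With replicates 4 and 5 left out 3426 of 16046 were called, 1821 of them higher. Within the first group 2803 of 14742 were called, 1777 of them higher. At 25 weeks the higher count was 4 with only the groups compared (2057 of 13917 genes) and 12 with limma-voom (3845 of 15812 genes). From 10 to 55 weeks in WT mice, calls numbered 1 with library size alone, 1 with no filter, 0 with a library-group term, 2 with only the groups compared, 1 with replicates 4 and 5 left out, 8 with DESeq2 and 7 with limma-voom. In that order 1825 of 15812, 1506 of 29322, 626 of 15812 and 1969 of 14167 genes were called. The remaining fits called 1913 of 16046, 2452 of 15812 and 2955 of 15812 genes. From 10 to 25 weeks in villin-PPARD mice member calls numbered 0 with DESeq2 size factors, no filter, a library-group term or replicates 4 and 5 left out, 2 with library size alone, 3 with only the groups compared, 4 with DESeq2 and 19 with limma-voom. In that order 483 of 15812, 246 of 29322, 208 of 15812 and 123 of 16046 genes were called where 0 members were. The other fits called 914 of 15812, 436 of 13787, 1132 of 15812 and 2961 of 15812 genes. From 10 to 55 weeks in villin-PPARD mice member calls numbered 60 (median 0.41) with library size alone and 15 with replicates 4 and 5 left out. Of all genes, 10592 of 15812 (median 0.44) and 7151 of 16046 were called in these fits. The genotype difference changed from 10 to 55 weeks for 47 members (median 0.44) with library size alone, 6 with no filter and 7 with replicates 4 and 5 left out, and from 25 to 55 weeks for 27 (median 0.35), 6 with no filter and 6 with only the groups compared. Of all genes it changed from 10 to 55 weeks for 7456 of 15812 (median 0.37), 5236 of 29322 and 4929 of 16046. From 25 to 55 weeks it changed for 5275 of 15812 genes (median 0.24), 3969 of 29322 and 3970 of 15607. From 10 to 25 weeks the median of this change over members was 0.0759 with library size alone, and 0.115 over all genes.

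Leaving out 1 library gave 6 to 7 higher and 7 to 8 lower members at 10 weeks (median -0.05 to -0.00), 5 to 9 and 10 to 28 at 25 weeks (-0.13 to -0.00), and 15 to 19 and 9 to 12 at 55 weeks (0.03 to 0.09). Calls from 10 to 25 and 10 to 55 weeks numbered 0 to 0 and 0 to 9 in WT mice (medians -0.04 to 0.04 and -0.11 to -0.07) and 0 to 16 and 20 to 24 in villin-PPARD mice (-0.12 to 0.01 and -0.02 to 0.03). Changes of the difference numbered 0 to 0 from 10 to 25 weeks (-0.12 to 0.01), 8 to 12 from 10 to 55 weeks (0.04 to 0.12) and 6 to 25 from 25 to 55 weeks (0.09 to 0.22). Over all genes, calls between genotypes numbered 4334 to 5476, 4863 to 6807 and 8819 to 9245 at the 3 ages. Age calls over all genes numbered 0 to 2 and 1203 to 1972 in WT and 64 to 1862 and 7572 to 8031 in villin-PPARD mice. Changes of the difference over all genes numbered 0 to 32, 5328 to 5787 and 3944 to 5148.

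The replicate numbers do not pair the samples: over 14 pairs the correlation of deviations ran from -0.42 to 0.23, and 2 pairs correlated best with their own number. With the replicate block the 1 call from 10 to 25 weeks in villin-PPARD mice became 0 and 79 of the 83 named calls held, and it moved no other count by over 1.5 times.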
